A study of Mus musculus with 16 samples.

Results

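H2-DMa, H2-Oa and H2-Ob are 3 genes of the nonclassical MHC class II molecules, chosen by symbol out of 19938 genes measured on the array. Each had 1 probe set with a single gene symbol, and all 3 were found. H2-DMa (probe set 10444229, chromosome 17) encodes the alpha chain of H2-DM. H2-Oa (probe set 10444223) and H2-Ob (probe set 10444284), also on chromosome 17, encode the alpha and beta chains of H2-O. The beta chain of H2-DM is not analysed here, because its probe set is annotated to both of its gene copies.

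MHC class II molecules leave the endoplasmic reticulum with the invariant chain in their groove. In late endosomes H2-DM takes out the remaining invariant chain fragment and exchanges peptides until a stably bound one is left. H2-O binds H2-DM and inhibits it, and is known from B cells and dendritic cells, where its level relative to H2-DM sets how much exchange takes place. Both molecules work inside the cell and do not themselves present peptide. Ciita is the transactivator that class II promoters need, and it works through proteins that bind the conserved X and Y boxes of these promoters.

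RNA came from sorted classical dendritic cells (DCs) and was hybridised to 16 Affymetrix Mouse Gene 1.0 ST arrays. The mice were B6, either Ciita -/- (called KO) or Ciita +/+ (called WT), and every one also carried Zbtb46 GFP/+, an allele in which GFP reports a gene active in classical DCs, so the controls share it. Animal ages are not given in the labels. CD24+ cells and CD172a+ (Sirpa+) cells were sorted either from spleen at homeostasis or from bone marrow grown for 9 days in 5% Flt3l. These cultures were activated by gamma interferon and then, for 4 hours, by LPS. The series design gives 16 hours of gamma interferon and the growth protocol 22 hours, and which of these applies is not known. The 8 groups (tissue, subset, genotype) held 2 arrays each, from 8 mice that each gave 1 CD24+ and 1 CD172a+ array. All cultures were activated, so culture and activation cannot be told apart.

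All values below are log2 signals as deposited. Arrays have no read depth, and the number of arrays limits the precision. The array medians over all probe sets were 7.29 to 7.32 in spleen and 6.85 to 6.92 in culture. The highest probe set of any array read 14.23 to 14.55, so the WT signals of the 3 genes sat in the upper part of the range. In spleen 10 of 10 cDC1 markers were higher in all CD24+ than in all CD172a+ arrays and 9 of 10 cDC2 markers were higher in all CD172a+ arrays, the exception being Clec12a, which was higher in CD24+ cells. In culture the markers separated the sorts less: 6 of 10 cDC1 markers were higher in all CD24+ arrays and 4 of 10 cDC2 markers in all CD172a+ arrays. There the sort gene Cd24a (13.00 to 13.16 in CD24+ and 12.98 to 13.05 in CD172a+ arrays) and Irf8 overlapped, and Batf3 (10.93 to 11.56 against 11.64 to 12.14) and Clec12a ran against their lists. The cDC1 chemokine receptor Xcr1 read 9.58 to 12.17 in CD24+ arrays and 6.27 to 6.82 in CD172a+ arrays, and Sirpa, the gene of CD172a, read 8.36 to 9.17 and 11.07 to 12.70. KO replicate 2 of the cultured CD24+ cells stood apart: Xcr1 was 9.58 against 10.41 to 10.87 in the other 3 arrays of that kind and Sirpa was 9.17 against 8.36 to 8.43. KO replicate 2 of the spleen CD24+ cells also stood apart, in neutrophil genes: Ngp was 10.51 against 5.91 to 8.68 in the other 3 arrays of that kind, S100a8 10.07 against 6.21 to 8.06 and Mpo 9.58 against 7.17 to 7.94. B cells also express H2-O. The mean of 11 measured B cell markers was 6.78 to 7.07 in spleen arrays and 5.88 to 6.01 in culture arrays, below the array medians, with 7 and 9 of the 11 under the median on every array. Cd79a, a subunit of the B cell receptor, read 4.44 to 5.27 in all arrays, while Ms4a1 (CD20) reached 8.51 to 9.70 in spleen and 5.19 to 5.73 in culture. Fcrla, the highest of the list, read 10.36 and 9.72 in WT and 10.89 and 10.97 in KO spleen CD24+ arrays, without overlap, and 7.04 or less in all other groups. In spleen the B cell mean was 6.91 to 7.07 in WT and 7.03 to 7.07 in KO CD24+ arrays, and 6.99 to 7.01 in WT and 6.78 to 7.01 in KO CD172a+ arrays. The mean of 7 neutrophil markers was 6.64 to 7.69 in WT and 7.38 to 9.27 in KO spleen CD24+ arrays, and 6.98 or less in all spleen CD172a+ arrays. That of 8 macrophage markers was 7.32 to 7.74 in WT and 7.26 to 7.36 in KO spleen CD24+ arrays, and higher, 8.58 to 9.26 in WT and 8.40 to 8.83 in KO, in spleen CD172a+ arrays. The part of such cells in the results was not tested. In cultured CD172a+ arrays the mean of 6 markers shared by classical DCs was 9.07 to 9.08 in WT and 8.79 to 8.85 in KO. That of the 10 cDC2 markers was 7.71 to 7.72 in WT and 7.43 to 7.62 in KO. In cultured CD24+ arrays the shared markers gave 9.76 to 9.93 in WT and 9.72 to 9.74 in KO, and the cDC2 markers 7.04 to 7.13 and 7.08 to 7.20. The part of these genotype differences was not tested either.

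The targeted gene was checked first. The Ciita probe set did not separate the genotypes in spleen, where it read 10.90 to 11.18 in KO and 10.97 to 11.05 in WT CD24+ arrays. The position of the deletion relative to the probes is not given in the labels, so this signal does not check the genotype. In culture it read 9.70 and 8.14 in KO against 10.51 and 10.85 in WT CD24+ arrays, and 8.35 and 7.17 in KO against 10.15 and 10.62 in WT CD172a+ arrays. Thus KO replicate 2 had the lower Ciita signal in both cultured subsets.

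The promoter windows of H2-Oa and H2-Ob are shown because both hold letters of the X and the Y box. H2-DMa fell in KO cells as well, and its listed windows hold no such pair. Which H2-DMa start the DCs used is not known, so this absence is only a description. The part of these boxes in the changes below was not tested. The sequences are the 250 bases before the annotated start, from RefSeq on GRCm38.p6, both on the + strand, at chr17:34092129-34092378 for H2-Oa and chr17:34238655-34238904 for H2-Ob. Capitals mark AGCAAC, a core of the X1 box, and ATTGG, the Y box.
H2-Oa: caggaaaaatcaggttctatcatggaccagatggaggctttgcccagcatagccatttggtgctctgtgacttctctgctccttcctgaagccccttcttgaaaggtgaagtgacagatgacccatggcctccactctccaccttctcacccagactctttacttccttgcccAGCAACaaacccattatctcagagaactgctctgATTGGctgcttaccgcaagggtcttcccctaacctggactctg
H2-Ob: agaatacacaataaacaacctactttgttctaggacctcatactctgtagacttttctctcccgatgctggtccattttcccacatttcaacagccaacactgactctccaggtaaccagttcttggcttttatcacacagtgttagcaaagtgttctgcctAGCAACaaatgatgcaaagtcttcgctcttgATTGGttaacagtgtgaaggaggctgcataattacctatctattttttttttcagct

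In H2-Oa the X1 core lies 77 to 72 bases and the Y box 43 to 39 bases before the start. In H2-Ob they lie 88 to 83 and 57 to 53 bases before it. Counting both strands, AGCAAC occurs in 12.2% and ATTGG in 33.8% of 32851 RefSeq promoter windows of the same length. The ordered pair, AGNNAC followed after 22 to 34 bases by ATTGG on the same strand, occurs in 1.91% of them, and it is present in H2-Oa and H2-Ob and also in the classical beta chain genes H2-Eb1 and H2-Eb2. The window of the classical alpha chain gene H2-Aa holds no ordered pair. No window was available for H2-Ab1, another classical beta chain gene, and no match was recorded for the invariant chain gene Cd74. The X2 core TGACG, found in 17.8% of windows, was in neither H2-O window. RefSeq lists 2 windows for H2-DMa, at chr17:34122582-34122831 and chr17:34125268-34125517, and neither holds the ordered pair or AGCAAC. Both windows lie within the annotated gene span, which runs from 34119693 to 34139101 on this build, and which start the DCs used is not known. A match is a description of the letters and not a measured binding site.

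H2-DMa, the exchanger subunit, was lower in every KO array than in every WT array of the same tissue and subset. With so few arrays per group many genes may show no overlap. Their share over all genes was not counted, here or for H2-Oa and H2-Ob. In spleen CD24+ cells it read 13.45 and 13.44 in WT and 12.55 and 12.65 in KO. In spleen CD172a+ cells it read 13.31 and 13.28 in WT and 11.99 and 12.12 in KO. The gap between the lowest WT and the highest KO array was 0.79 and 1.15 in these subsets. Cultured CD24+ cells gave 13.06 and 13.13 in WT and 12.22 and 11.87 in KO, with a gap of 0.84. Cultured CD172a+ cells gave 12.09 and 12.18 in WT and 8.89 and 8.90 in KO, with a gap of 3.20. This last group stood far below the other 7, which all read 11.87 or more.

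H2-Oa, the alpha chain of the inhibitor, was also without overlap between the genotypes in the 4 tissue and subset pairs. In spleen CD24+ cells it read 12.92 and 12.85 in WT and 11.21 and 11.08 in KO. Spleen CD172a+ cells gave 13.19 and 13.28 in WT and 12.22 and 12.09 in KO. In spleen KO mice the H2-Oa signal was thus lower in CD24+ than in CD172a+ cells, the reverse of H2-DMa. Cultured CD24+ cells read 11.65 and 11.83 in WT and 8.67 and 8.17 in KO. Cultured CD172a+ cells read 11.62 and 11.72 in WT and 8.56 and 8.51 in KO. In culture the 2 subsets overlapped in KO and lay 0.07 apart in their WT means.

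H2-Ob, the beta chain, had the lowest KO signals of the 3 relative to its own WT level in 3 of the 4 pairs. It read 12.15 and 12.17 in WT and 9.79 and 9.70 in KO spleen CD24+ cells, and 12.43 and 12.45 in WT and 10.05 and 9.66 in KO spleen CD172a+ cells. In culture the CD24+ cells read 11.89 and 12.11 in WT and 9.28 and 8.31 in KO. The CD172a+ cells read 10.58 and 10.95 in WT and 7.09 and 6.36 in KO. Their KO mean of 6.72 lay 0.23 below the median of the tested genes on those arrays. The deposited values carry no detection call, so a level above background is not shown there, and the H2-Ob change in this pair may be a lower bound. The WT arrays of the cultured CD172a+ cells were themselves lower than all 6 other WT arrays.

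**Figure D1:**
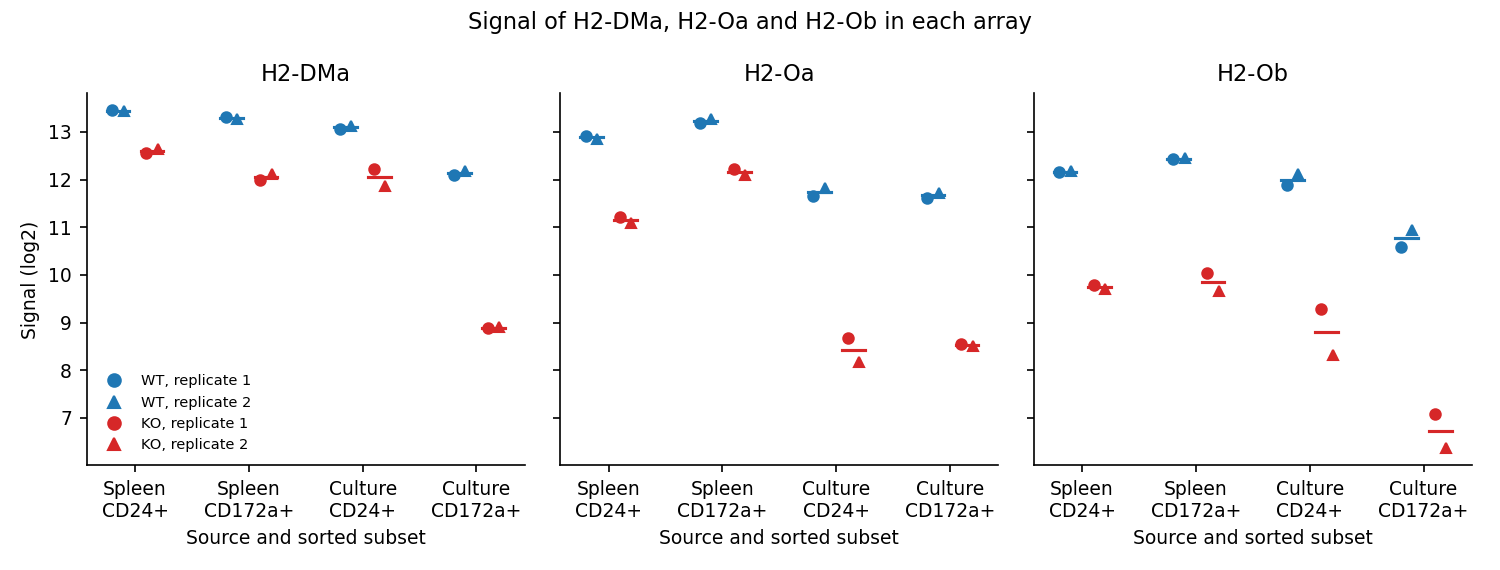
Log2 signal of H2-DMa, H2-Oa and H2-Ob in each of the 16 arrays, by tissue, sorted subset and genotype (blue WT, red KO). Circles are replicate 1, triangles replicate 2 and short lines group means of 2 arrays, and in each pair the KO arrays lie below the WT arrays, with H2-DMa of cultured CD172a+ KO cells at 8.89 and 8.90.

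The order of the group means differed between the genes. For H2-DMa it ran from spleen CD24+ WT (13.44 ± 0.01, SD, n = 2) over spleen CD172a+ WT (13.29 ± 0.02) and cultured CD24+ WT (13.10 ± 0.05) to spleen CD24+ KO (12.60 ± 0.07). Cultured CD172a+ WT (12.13 ± 0.06), spleen CD172a+ KO (12.06 ± 0.09) and cultured CD24+ KO (12.05 ± 0.25) followed with overlapping neighbours, and cultured CD172a+ KO (8.89 ± 0.01) was last. H2-DMa and H2-Oa each had a spleen KO group above a cultured WT group and H2-Ob had none, an order that crosses tissues whose scaling may differ. For H2-Oa the highest mean was spleen CD172a+ WT (13.24 ± 0.06) and the lowest cultured CD24+ KO (8.42 ± 0.35), which overlapped cultured CD172a+ KO (8.53 ± 0.03). The cultured WT subsets overlapped as well. For H2-Ob the 4 WT groups came first, from 12.44 ± 0.01 in spleen CD172a+ to 10.77 ± 0.26 in cultured CD172a+ cells, and then the 4 KO groups, of which the spleen subsets overlapped.

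The study compared KO with WT cells to find transcripts that depend on Ciita. All 3 genes fell in each of the 4 comparisons by limma with an adjusted p under 0.05. The share of all genes called lower was 0.0552% in spleen CD24+, 0.0752% in spleen CD172a+, 0.0853% in cultured CD24+ and 0.0552% in cultured CD172a+ cells. In either direction it was 0.0602%, 0.0802%, 0.0953% and 0.0602%. For H2-DMa the change was smallest in spleen CD24+ cells (-0.84 ± 0.10, SE, 1.79-fold, adjusted p = 0.007). It was -1.23 ± 0.10 in spleen CD172a+ cells (2.35-fold), -1.05 ± 0.10 in cultured CD24+ cells (2.07-fold) and -3.24 ± 0.10 in cultured CD172a+ cells (9.47-fold, adjusted p = 9.467e-09). The KO signal was thus 55.7%, 42.6%, 48.3% and 10.6% of WT on the linear scale.

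H2-Oa changed by -1.74 ± 0.13 in spleen CD24+ cells (3.34-fold lower, adjusted p = 3.635e-04) and by -1.08 ± 0.13 in spleen CD172a+ cells (2.12-fold, adjusted p = 0.00472). In culture it changed by -3.32 ± 0.13 in CD24+ cells (10-fold lower, adjusted p = 2.062e-07) and by -3.14 ± 0.13 in CD172a+ cells (8.79-fold). H2-Ob changed by -2.41 ± 0.28, -2.59 ± 0.28, -3.21 ± 0.28 and -4.05 ± 0.28 in the same order, 5.33-fold to 16.5-fold lower, the last with the limit given above (adjusted p from 1.822e-05 to 0.007). In linear signal 30% and 47.2% of H2-Oa was left in the spleen subsets, against 18.8% and 16.7% of H2-Ob, its partner chain. Fewer cells of a type and less RNA per cell cannot be told apart in these bulk samples.

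Some of these calls were lost with 1 array left out, while their directions remained. Where the H2-DMa call was lost, the change was -0.89 to -0.84 with a standard error of 0.12 to 0.13, against 0.10 in the full fit. Leaving out KO replicate 2, WT replicate 1 or WT replicate 2 of the spleen CD24+ group ended the calls of H2-DMa (-0.89 without the KO array; adjusted p = 0.0703, 0.0776 and 0.108) and H2-Ob (-2.37 without the KO array; adjusted p = 0.0947, 0.0776 and 0.108) by limma. That KO array is the one with the high neutrophil genes, and without it H2-Oa changed by -1.67 and was still called. H2-Oa in spleen CD172a+ cells was lost without KO replicate 2 (adjusted p = 0.0835) or WT replicate 2 (adjusted p = 0.0998). Without KO replicate 2 of the cultured CD24+ cells, which stood apart in Xcr1 and Sirpa, the changes there were -0.87 for H2-DMa, -3.07 for H2-Oa and -2.72 for H2-Ob, and all 3 calls remained. Without KO replicate 1 they were -1.23, -3.57 and -3.69. With the culture arrays alone in the fit, H2-DMa (adjusted p = 0.118) and H2-Ob (adjusted p = 0.116) did not pass in cultured CD24+ cells.

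**Figure D2:**
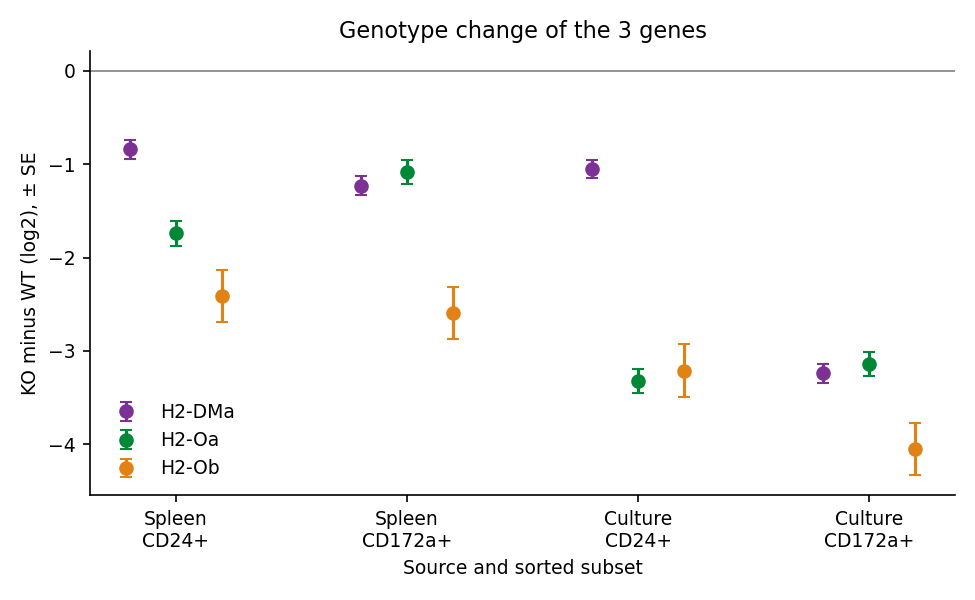
KO minus WT change (log2, vertical axis) of the 3 genes in each tissue and subset, with the standard error of the limma fit as bars (n = 2 arrays per group). H2-DMa lies at -0.84, -1.23 and -1.05 in 3 pairs and at -3.24 in cultured CD172a+ cells, while H2-Ob lies between -2.41 and -4.05.

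Whether the loss differed between the subsets was tested on the difference between the 2 arrays of each mouse, with 2 mice per genotype and tissue. In culture H2-DMa was lost more in CD172a+ than in CD24+ cells, by 2.19 ± 0.13 (limma, adjusted p = 5.270e-04), and in that test 0.0251% of all genes were called in this direction. The difference between CD24+ and CD172a+ cells was 0.97 and 0.96 in the WT mice and 3.34 and 2.97 in the KO mice. The call remained without any 1 of the 8 mice, with values from 2.01 to 2.37, though only the cultured mice can move the value. H2-Ob had a difference of 0.84 ± 0.14 in the same direction (adjusted p = 0.203), and H2-Oa one of -0.19 ± 0.15 (adjusted p = 0.985), so neither passed. In spleen no member passed: H2-DMa gave 0.39 ± 0.13 (adjusted p = 0.999), H2-Oa -0.66 ± 0.15 (adjusted p = 0.838) and H2-Ob 0.17 ± 0.14 (adjusted p = 0.999), and 0.00502% of all genes were called.

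The subset gap of the H2-DMa loss was 1.80 ± 0.18 wider in culture than in spleen, and this difference did not pass over all genes (limma, adjusted p = 0.0989), though no gene ranked before it. In this test limma called 0% of all genes, and 928 had an unadjusted p under 0.05. By limma it passed with a mean-variance trend (adjusted p = 0.0326) and in the fit without the mouse pairs (adjusted p = 0.0209). It did not pass after quantile normalization, with a filter on low means or with all probe sets. With 1 mouse left out it was called in 2 of 8 fits, those without a cultured KO mouse, at 1.62 and 1.99. The values for H2-Oa and H2-Ob were 0.47 ± 0.21 and 0.67 ± 0.20 (adjusted p = 0.995 for both).

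Between tissues the loss was tested within each subset. In CD172a+ cells it was larger in culture for H2-DMa (-2.01 ± 0.14, adjusted p = 1.400e-04) and for H2-Oa (-2.05 ± 0.19, adjusted p = 8.881e-04), in a limma test that called 0.015% of all genes in this direction. For H2-Ob the difference was -1.46 ± 0.40 (adjusted p = 0.907). In CD24+ cells H2-Oa passed (-1.58 ± 0.19, adjusted p = 0.0428) and was the single gene called, which is 0.00502% of all genes. That call was kept in 3 of 16 fits with 1 array left out, with -1.33 (adjusted p = 0.00552) without KO replicate 2 of culture and -1.65 (adjusted p = 0.214) without KO replicate 2 of spleen. It was also lost after quantile normalization (-1.23, adjusted p = 0.158) and after centring on the array medians (-1.57, adjusted p = 0.101). H2-DMa (-0.21 ± 0.14, adjusted p = 0.968) and H2-Ob (-0.79 ± 0.40, adjusted p = 0.968) did not pass in CD24+ cells. The Ciita signal of KO cells was lower in culture than in spleen too, and its part in these differences was not tested.

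**Figure D3:**
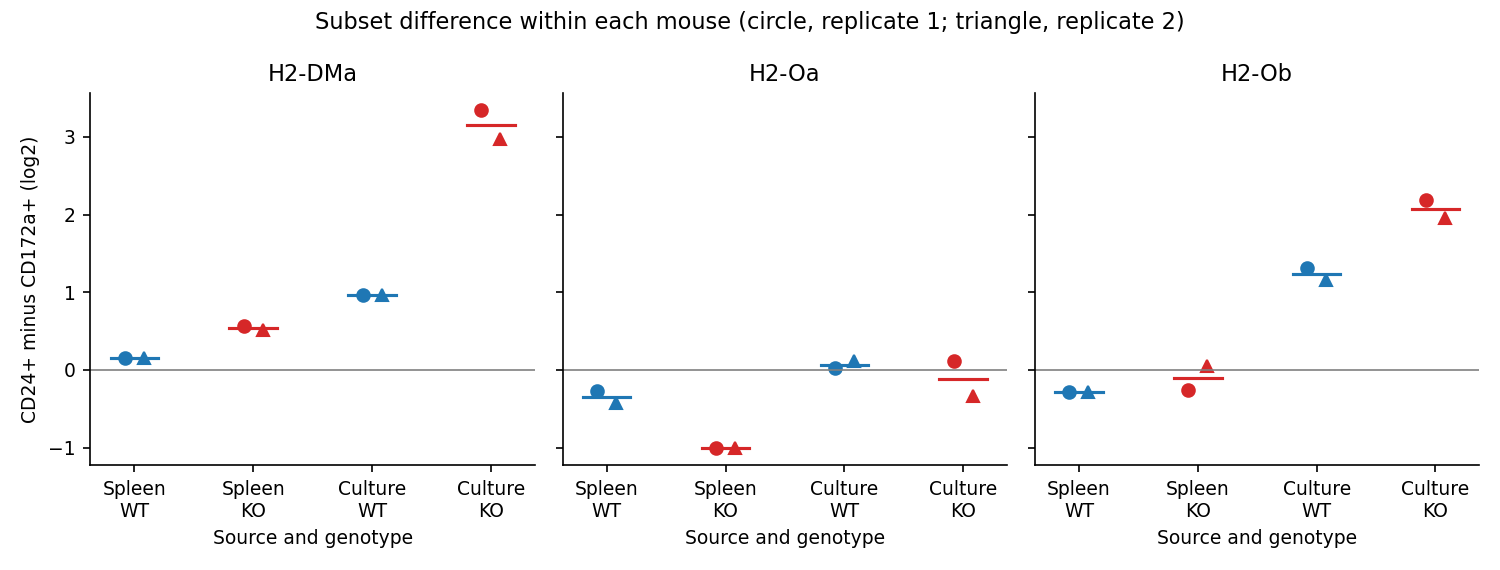
CD24+ minus CD172a+ difference of log2 signal within each mouse (vertical axis) for the 3 genes, by tissue and genotype, with circles for replicate 1, triangles for replicate 2 and lines for means of 2 mice. H2-DMa reaches 3.34 and 2.97 in cultured KO mice, H2-Oa has a mean of -1.01 in spleen KO mice, and H2-Ob is at 1.31 and 1.16 in cultured WT mice.

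Within a genotype each gene was compared between the subsets, and the genes were not tested against each other. In spleen WT mice none of the 3 genes passed, with CD24+ minus CD172a+ at 0.15 ± 0.10 for H2-DMa, -0.35 ± 0.13 for H2-Oa (limma, adjusted p = 0.0958) and -0.28 ± 0.28 for H2-Ob, while 17.8% of all genes were called. With the spleen arrays alone in the fit H2-Oa passed (adjusted p = 0.0146). In spleen KO mice H2-DMa was higher in CD24+ cells (0.54 ± 0.10, adjusted p = 0.00189) and H2-Oa lower (-1.01 ± 0.13, adjusted p = 1.471e-04), while H2-Ob gave -0.11 ± 0.28 (adjusted p = 0.857), against 20% of all genes called, 10.6% higher and 9.39% lower. Without KO replicate 2 of the spleen CD24+ cells the values were 0.49, -0.94 and -0.06, and both calls remained.

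In cultured WT mice CD24+ cells held more H2-DMa (0.96 ± 0.10, 1.95-fold, adjusted p = 4.759e-05) and more H2-Ob (1.23 ± 0.28, 2.35-fold, adjusted p = 0.00929), while H2-Oa gave 0.07 ± 0.13 (adjusted p = 0.839), and 16.7% of all genes were called by limma, 7.98% higher. The H2-Ob call was lost without CD172a+ WT replicate 1 (adjusted p = 0.0956) or CD24+ WT replicate 2 (adjusted p = 0.0845). In cultured KO mice the CD24+ excess was 3.15 ± 0.10 for H2-DMa (8.9-fold, adjusted p = 8.092e-09) and 2.07 ± 0.28 for H2-Ob (4.2-fold, adjusted p = 4.795e-04). H2-DMa ranked 1 by p among all genes in that comparison, in which 13.4% of genes were called and 6.89% were called higher, and H2-Oa gave -0.12 ± 0.13. Both calls were kept in each of 16 fits with 1 array left out, though only arrays of the groups compared can move the values. These ranged from 2.98 to 3.33 for H2-DMa and from 1.59 to 2.55 for H2-Ob.

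Culture was set against spleen on values centred on each array's median, because the tissues appear to have been normalized as separate sets. The median gene then changed by 0.12 to 0.15, and without centring by -0.33 to -0.27. In CD172a+ WT cells all 3 genes were lower in culture, H2-DMa by -0.72 ± 0.11, H2-Oa by -1.13 ± 0.14 and H2-Ob by -1.23 ± 0.29 (limma, adjusted p = 7.324e-05, 2.002e-05 and 0.00249), where 26.3% of all genes were called lower. In CD24+ WT cells H2-Oa fell (-0.69 ± 0.14, adjusted p = 9.691e-04, against 25.9% of all genes called lower). H2-DMa and H2-Ob gave 0.11 ± 0.11 and 0.29 ± 0.29 there, and their signs turned with quantile normalization (-0.26 and -0.23) and without centring (-0.35 and -0.16). In KO cells the 3 genes were lower in cultured CD172a+ cells, with changes from -3.20 to -2.71, and in CD24+ cells H2-Oa changed by -2.26 ± 0.14 (adjusted p = 7.183e-08), or -1.98 without KO replicate 2 of culture and -2.33 without KO replicate 2 of spleen. With limma 25.8% and 25.6% of all genes were called lower in these KO comparisons. The activated cells differed from spleen in maturation genes as well: 9 of 10 listed genes, such as the costimulatory receptor Cd40 (3.41 ± 0.11 in CD24+ WT) and the interleukin-12 subunit Il12b (2.29 ± 0.10), were higher in each of these comparisons. Of all genes 40.2% and 41.2% were called higher in CD24+ WT and KO cells, and 43% and 43.5% in CD172a+ WT and KO cells.

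Probe levels of different genes cannot be compared, but the change of their difference within an array can, and a scaling of the whole array by an additive log2 shift cancels in it. These values are given without a test, and how often other pairs of genes show no overlap was not counted. In CD24+ cells H2-DMa minus H2-Oa was 0.53 and 0.58 in spleen WT and 1.34 and 1.57 in spleen KO. It was 1.41 and 1.30 in cultured WT and 3.55 and 3.70 in cultured KO cells. The KO shift was therefore 0.90 (pooled SD 0.12) in spleen and 2.27 (pooled SD 0.09) in culture, both without overlap: relative to WT, H2-Oa was lost more than H2-DMa. In CD172a+ cells the same difference was 0.11 and 0.00 in spleen WT and -0.23 and 0.04 in spleen KO, which overlapped (shift -0.15, pooled SD 0.15). In cultured CD172a+ cells it was 0.47 and 0.46 in WT and 0.33 and 0.39 in KO, without overlap. This shift of -0.11 (pooled SD 0.03) had the opposite sign to those in CD24+ cells. Its size was small, so in cultured CD172a+ cells the exchanger and inhibitor alpha chains moved by nearly the same amount.

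Against the beta chain the shift was positive in each pair. H2-DMa minus H2-Ob was higher in KO by 1.57 (pooled SD 0.09) in spleen CD24+, by 1.35 (0.26) in spleen CD172a+, by 2.16 (0.32) in cultured CD24+ and by 0.80 (0.40) in cultured CD172a+ cells, and KO and WT arrays did not overlap. The KO arrays read 2.76 and 2.94 in spleen CD24+ and 2.95 and 3.56 in cultured CD24+ cells, replicate 2 being the higher in both. The shift in cultured CD172a+ cells rests on the low H2-Ob signals described above and may be a lower bound too. Among WT cells, H2-DMa minus H2-Oa was 0.80 higher in culture than in spleen for CD24+ cells (pooled SD 0.06) and 0.41 higher for CD172a+ cells (pooled SD 0.06). H2-DMa minus H2-Ob moved by -0.19 (pooled SD 0.08) in CD24+ and by 0.51 (pooled SD 0.15) in CD172a+ WT cells. After quantile normalization H2-DMa and H2-Ob changed by -0.26 and -0.23 in CD24+ WT cells, so the second difference was then near 0, while H2-Oa changed by -1.16. Between WT subsets, CD24+ cells exceeded CD172a+ cells in H2-DMa minus H2-Oa by 0.50 in spleen and 0.89 in culture. For H2-DMa minus H2-Ob they exceeded them by 0.43 in spleen, while in culture the difference was -0.27, so the chains of H2-O gave opposite signs there.

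**Figure D4:**
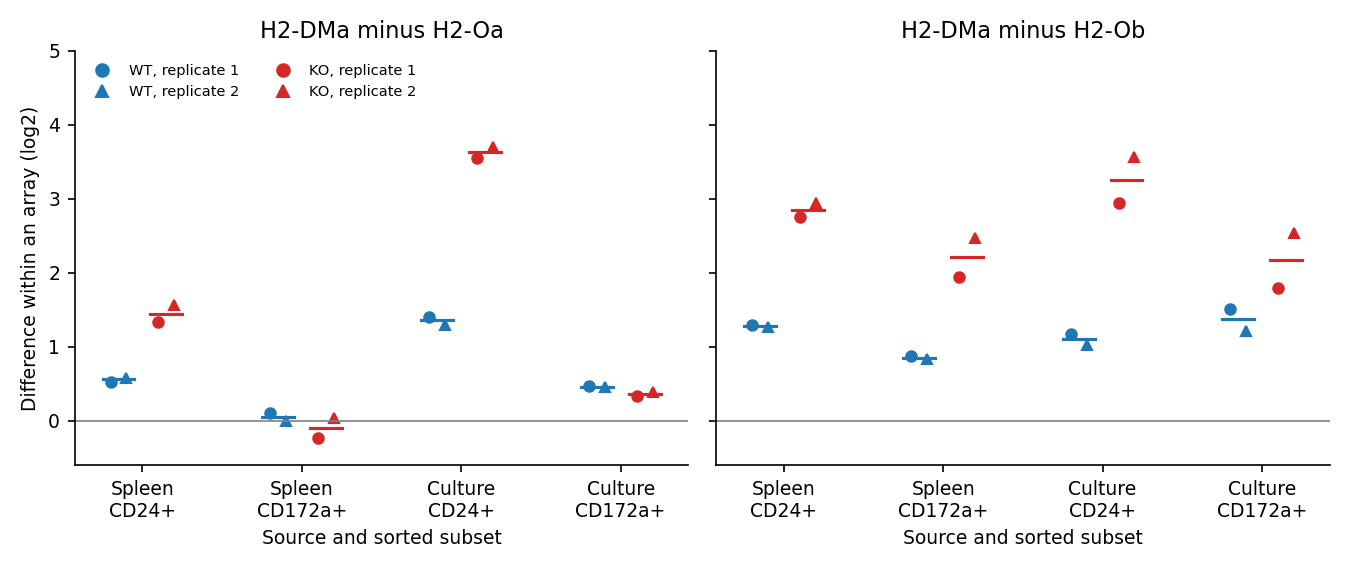
Difference of log2 signal within each array, H2-DMa minus H2-Oa (left) and H2-DMa minus H2-Ob (right), by tissue, subset and genotype (blue WT, red KO), with circles for replicate 1, triangles for replicate 2 and lines for means of 2 arrays. The left panel shows KO above WT in CD24+ cells, at 3.55 and 3.70 against 1.41 and 1.30 in culture, and little shift in CD172a+ cells. Zero has no meaning of its own, since probe levels of 2 genes are not comparable.

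The 3 genes lie among other genes of the class II region on chromosome 17. In the RefSeq order H2-Oa and H2-DMa are separated by Brd2, a chromatin reader, and H2-DMa and H2-Ob by the H2-DMb genes, by Psmb8 and Psmb9, catalytic subunits of the immunoproteasome, and by Tap1 and Tap2, which carry peptides to class I molecules. Of 17 measured genes from Slc39a7 to Btnl1, 7 were called in at least 1 genotype comparison. These were the 3 nonclassical genes with H2-Ab1, H2-Aa, H2-Eb1 and H2-Eb2. The 10 others had 0 calls by limma in 40 gene and comparison pairs (3 at an unadjusted p under 0.05), with changes from -0.40 to 0.31. Over all genes 0.0602% to 0.0953% were called in these comparisons, so 0 calls do not set the 10 apart from other genes. Brd2, between H2-Oa and H2-DMa, gave 0.11 ± 0.07, 0.07 ± 0.07, -0.08 ± 0.07 and 0.01 ± 0.07, and Tap2, the neighbour of H2-Ob, gave 0.31 ± 0.11 to -0.22 ± 0.11.

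**Figure D5:**
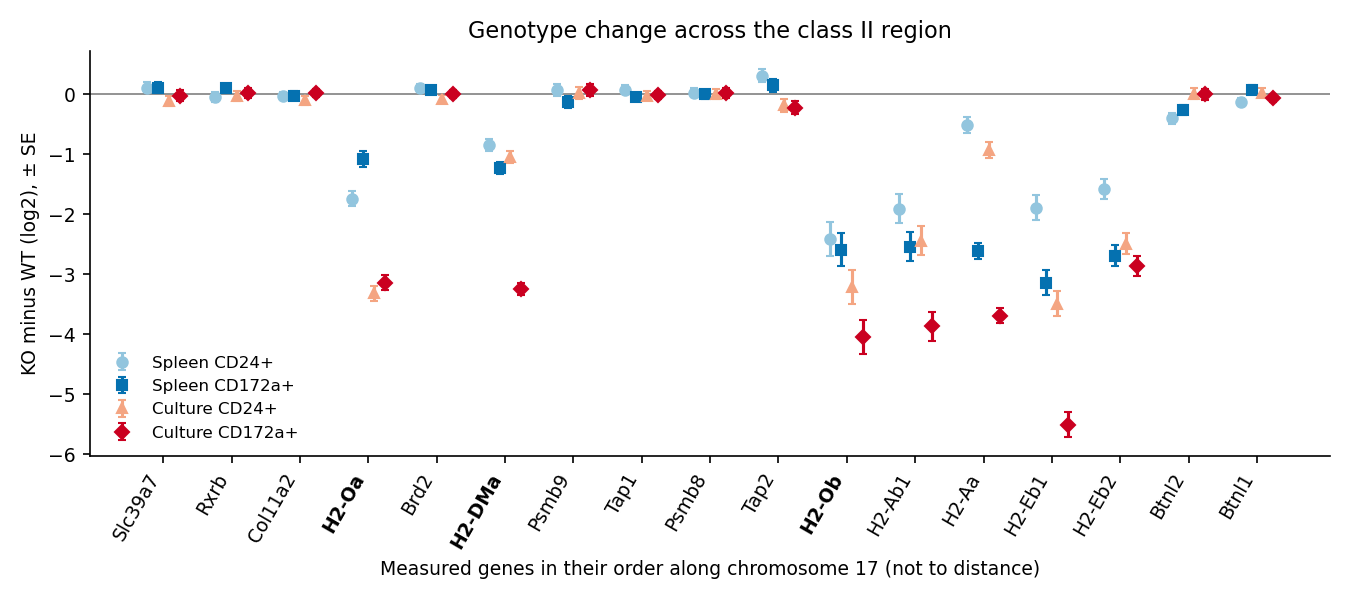
KO minus WT change (log2, vertical axis, bars are the standard error of the limma fit) of measured genes in their order along chromosome 17, not to distance, for the 4 tissue and subset pairs. H2-Oa, H2-DMa and H2-Ob (bold) lie well below 0, while Brd2, Psmb9, Tap1, Psmb8 and Tap2 between them lie from -0.22 to 0.31.

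Other genes of the pathway were counted in the same fits. Of 6 genes, the classical chains H2-Aa, H2-Ab1, H2-Eb1, H2-Eb2 and H2-Ea with the invariant chain Cd74, 4 fell in spleen CD24+ cells and 5 in each of the 3 other pairs, and 0 rose. H2-Ea was the gene not called in those 3 pairs, with -0.25 in spleen CD172a+, 0.04 in cultured CD24+ and 0.06 in cultured CD172a+ cells. A missing call does not show that H2-Ea is independent of Ciita. In spleen CD172a+ cells all 6 genes had an unadjusted p under 0.05 by limma. Their median change was -1.11, -2.57, -1.68 and -3.28, beside 0.00 to 0.02 over all genes. H2-Aa, the chain that binds H2-Ab1, gave -0.51 ± 0.13 (adjusted p = 0.653) and -2.61 ± 0.13 in spleen CD24+ and CD172a+ cells, and -0.93 ± 0.13 and -3.69 ± 0.13 in culture. H2-Eb1 had the largest change of the list in cultured CD172a+ cells (-5.51 ± 0.21), and Cd74, whose product H2-DM helps to clear from the groove, fell in each pair, from -0.55 ± 0.07 to -0.83 ± 0.07. None of the 14 genes of peptide supply and class II turnover, such as the protease Ctss and the thiol reductase Ifi30, was called by limma in these comparisons (0 to 2 of 14 at an unadjusted p under 0.05). Over all genes 0.0602% to 0.0953% were called there. Thus 0 calls among these genes, or among the promoter factors below, do not set them apart from other genes. Ifi30 gave 0.42 ± 0.26 in cultured CD24+ cells and the tetraspanin Cd63 gave 0.41 ± 0.16 in spleen CD172a+ cells. Of the 8 class II promoter factors 0 were called by limma (0 to 3 of 8 at an unadjusted p under 0.05), Ciita included. Ciita had the lowest changes of this list in culture, -1.76 in CD24+ and -2.63 in CD172a+ cells. Its KO replicates stood far apart there, as given above, so the missing call does not show an unchanged signal. Rfx5, a subunit of the complex that binds the X box, gave -0.40 ± 0.12 in spleen CD172a+ cells (adjusted p = 0.639).

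By Pearson correlation over the 16 arrays, centred on their medians, the genes most like H2-DMa were H2-Ob (0.898), H2-Aa (0.896), H2-Eb1 (0.891), Tmed2 (0.869) and Cd52 (0.858). For H2-Oa they were H2-Eb2 (0.886), Ciita (0.866), H2-Ob (0.866), H2-Eb1 (0.836) and Olfr477 (0.833), and for H2-Ob they were H2-Eb1 (0.961), H2-Ab1 (0.952), H2-DMa (0.898), H2-Oa (0.866) and H2-Aa (0.839). H2-DMa and H2-Oa correlated less with each other, at 0.701 over all arrays, 0.651 over the 8 spleen and 0.666 over the 8 culture arrays. The arrays share mice, tissues and genotypes, so these values are descriptions.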

How the data were processed

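RNA of sorted DCs was amplified with the Ovation Pico WTA system and labelled with biotin, per the labels' protocols. Each probe set has 1 deposited log2 signal per array. The authors' background correction, normalization and summarization are not given in the sources used here. Quartiles were nearly equal within a tissue and differed between tissues, and the values themselves show the log2 scale. Of 30177 probe sets, 21789 had 1 gene symbol (21698 updated through the Entrez ID), 1621 several and 6767 none. For 999 genes with more than 1 probe set the one with the highest mean was used, which left 19938 genes and no filter on low values.

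Tests used limma 3.58.1 in R 4.3.3 on all 19938 genes, 2-sided, with Benjamini-Hochberg adjustment in each of 17 comparisons and a threshold of 0.05. The array fit had 1 mean per group over 16 arrays (8 residual and 3.95 prior degrees of freedom) and ignored that a mouse gave 2 arrays. The genotype by subset tests used the CD24+ minus CD172a+ difference of each of 8 mice (4 residual degrees of freedom). The labels name the mouse, which pairs the subsets. The correlation across genes of the deviations of a mouse's 2 arrays was 0.393 in culture KO, 0.205 in culture WT, 0.202 in spleen KO and -0.0967 in spleen WT mice. KO and WT mice are different animals. No 2 arrays were identical.

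The members and gene lists were chosen with earlier results of these data known. Named genes were the 3 members, list members with the largest changes or on which a result turned, and the 5 genes most correlated with each member. Marker and neighbour genes were picked from those lists with their values known. Both fits were tested on simulated data with independent arrays and changes put into the cultured CD24+ KO group. Of changes of 0.5 and 1 log2 the array fit called 50% and 84%. The test on the difference within each mouse called 2% and 66% of them. Changes of this size may thus go uncalled in the genotype by subset tests. The alternatives were quantile normalization, centring, a mean-variance trend, a filter on low means, all probe sets, 1 tissue alone, replicate blocks and leaving out each array or mouse.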

Additional observations from a re-analysis of the deposited data

Results flagged for a closer look

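For 4 results the genotype effect differed between tissues or subsets by a test of the difference itself (limma, adjusted over all genes). The loss of H2-DMa in CD172a+ cells was larger in culture than in spleen (-2.01), and so was that of H2-Oa (-2.05). The loss of H2-Oa in CD24+ cells was larger in culture (-1.58), a call kept in 3 of 16 fits with 1 array left out. In culture the loss of H2-DMa was larger in CD172a+ than in CD24+ cells (2.19).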

How the results depend on the processing

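For the 12 genotype changes (3 genes in 4 comparisons), 94 of 96 refits under other settings kept direction and side of the threshold. With 1 array left out 184 of 192 refits did so. Most of those left out an array outside the comparison, which cannot move the change itself, so that count overstates stability. Every lost call came from leaving out an array inside the comparison. No refit turned the direction. With the arrays of the tissue alone, H2-DMa (-1.05, adjusted p = 0.118) and H2-Ob (-3.21, adjusted p = 0.116) were not called in cultured CD24+ cells, nor was the subset difference of H2-Ob in cultured WT mice (1.23, adjusted p = 0.0721), while H2-Oa was called in spleen WT mice (-0.35). H2-Oa in the tissue difference of CD24+ cells was not called after quantile normalization (-1.23) or centring (-1.57). In CD24+ cells, culture minus spleen of H2-DMa was -0.26 (WT) and -0.61 (KO) after quantile normalization, -0.35 and -0.55 without centring, and 0.26 and 0.05 with a filter on low means. H2-Ob gave -0.23 (WT) after quantile normalization, and -0.16 (WT) and -0.95 (KO) without centring. The H2-DMa subset gap between tissues was called with a trend (1.80) and with no replicate block (1.80), and not after quantile normalization, with a filter on low means or with all probe sets. After quantile normalization the KO shift of H2-DMa minus H2-Oa was 1.05 and 1.93 in spleen and cultured CD24+ cells, and that of H2-DMa minus H2-Ob was 1.92, 1.68 and 1.83 in spleen CD24+, spleen CD172a+ and cultured CD24+ cells. The cause of these moves was not tested, except that a fit of 1 tissue holds fewer samples.

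With 1 array or mouse left out, the genotype change ranged from -0.89 to -0.80 (H2-DMa) and -2.46 to -2.37 (H2-Ob) in spleen CD24+ cells, and from -1.15 to -1.01 (H2-Oa) in spleen CD172a+ cells. The tissue difference of H2-Oa in CD24+ cells ranged from -1.84 to -1.33. Subset differences ranged from -0.39 to -0.31 (H2-Oa, spleen WT), -0.30 to 0.09 (H2-Ob, spleen KO), -0.02 to 0.16 (H2-Oa, culture WT), 1.05 to 1.42 (H2-Ob, culture WT) and -0.37 to 0.14 (H2-Oa, culture KO). Culture minus spleen in CD24+ KO cells ranged from -0.28 to 0.12 (H2-DMa) and -0.99 to 0.02 (H2-Ob). The genotype by subset difference of H2-Oa in culture ranged from -0.42 to 0.04, and that of H2-DMa between tissues from 1.62 to 1.99.

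The count of all genes called was 12, 16, 19 and 12 in the 4 genotype comparisons. Across the other settings it ran from 9 to 21, 15 to 25, 4 to 21 and 7 to 15. With 1 array left out it ran from 1 to 35, 13 to 21, 10 to 1269 and 7 to 45, the highest of the third without KO replicate 1 of the cultured CD24+ cells. With the mouse as a replicate block (consensus correlation 0.121) it was 11, 16, 19 and 12, with the replicate number as a fixed block 9, 18, 16 and 12, and neither block changed a call of the 3 genes. With no replicate block the genotype by subset tests called 2 genes in spleen and 4 in culture, against 1 and 8 with the mouse pairs. The 2 arrays per group, and WT signals near the top of the array range, limit how well sizes of change are known.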
